A study of Homo sapiens with 6 samples.

Results

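The genes described here are NFE2L2, which encodes the transcription factor NRF2, 7 genes known as NRF2 antioxidant targets (NQO1, HMOX1, GCLC, GCLM, TXNRD1, SRXN1 and OSGIN1) and the 2 chains of ferritin, FTH1 and FTL. They were picked by symbol, with earlier results of these data known, and all 10 were found among the 29790 genes of the expression table. The cells were A375, an established human melanoma line maintained in RPMI1640 with serum. One group of 3 libraries came from untreated cells grown side by side with the treated ones, and the other group of 3 came from cells exposed to 3 µM fluvastatin for 24 h. Fluvastatin is a statin, an inhibitor of the enzyme that makes mevalonate. The labels speak of triplicates but do not state whether each library had its own culture. The p-values therefore reflect the spread among the libraries, and that spread may be technical only. In bulk RNA, a lower level in every cell and a smaller share of expressing cells cannot be told apart.

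NRF2 is a leucine-zipper transcription factor that is made continuously and, in resting cells, is handed by its adaptor KEAP1 to a ubiquitin ligase and degraded. Oxidants and electrophiles modify KEAP1, NRF2 then accumulates and pairs with a small MAF protein, and the pair binds antioxidant response elements near genes of glutathione, thioredoxin, NADPH and iron metabolism. NRF2 is thus controlled largely at the level of its protein, which RNA-seq does not measure. BACH1 competes for the same elements and is released from them by haem. Ferritin, a shell of heavy (FTH1) and light (FTL) chains that stores iron, answers to NRF2 in transcription and to iron in translation, through iron regulatory proteins.

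The element has a core that can be written TGACNNNGC. That core and the AP-1 element TGACTCA were searched on both strands of RefSeq promoter windows on GRCh38.p14, each of 300 bases from 250 before to 50 after an annotated start site. Windows of 8 of the 10 genes were used, 10 windows in all, and those of HMOX1 and FTH1 were not used here. The core was found in 13.35% of all 35116 windows and the AP-1 element in 4.95%. The core occurred at 2 of the 8 genes, GCLM and TXNRD1, which are shown because the first did not pass the test and the second rose. The AP-1 element occurred at OSGIN1, shown because that gene had the largest fold change of the 10. A sequence such as TGACTCA followed by GC would count for both motifs, and none of the matches did so. Capitals mark the match, and in the GCLM and second TXNRD1 lines the core lies on the other strand and reads GCNNNGTCA.
GCLM, chr1:93909431-93909490, minus strand, match beginning 34 bases before the start: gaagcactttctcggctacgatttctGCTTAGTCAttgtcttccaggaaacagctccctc
TXNRD1, upstream start, chr12:104215654-104215713, plus strand, match beginning 99 bases before the start: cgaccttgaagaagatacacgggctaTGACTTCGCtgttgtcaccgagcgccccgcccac
TXNRD1, downstream start, chr12:104286904-104286963, plus strand, match beginning 102 bases before the start: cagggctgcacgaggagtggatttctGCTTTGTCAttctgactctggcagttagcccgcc
OSGIN1, chr16:83953117-83953174, plus strand, AP-1 match beginning 97 bases before the start: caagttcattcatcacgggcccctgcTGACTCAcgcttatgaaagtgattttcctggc
The upstream TXNRD1 window held another core match, beginning 8 bases before the start. The windows of NFE2L2, GCLC, NQO1, FTL and SRXN1 held neither motif. A match is a string of letters and not a measured binding site, and elements outside these windows were not searched.

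Values are FPKM, fragments scaled by transcript length and by the size of the library, so levels can be compared between genes. A gene entered the limma test on log2(FPKM + 1) when 3 or more of the 6 libraries reached 1 FPKM. A Benjamini-Hochberg adjusted p below 0.05 over all 14344 tested genes is called a rise or a fall. Folds are ratios of mean FPKM, whereas log2 fold changes are on log2(FPKM + 1). The added 1 makes the log2 fold changes of genes at low levels smaller than their folds. Relative sequencing depth, read from the steps between low values, was 0.966 to 1.185 in the controls and 1.274 to 1.514 in the fluvastatin libraries, with control replicate 0 at 1, so depth and treatment cannot be told apart. Some melanoma markers differed between the groups without overlap. SOX10 was at 20.1 to 26.1 FPKM in the controls and 67.1 to 75.4 FPKM with fluvastatin, MIA at 123 to 154 and 185 to 259 FPKM, and PRAME at 42.2 to 45.7 and 23.8 to 28.5 FPKM. MITF was at 6.66 to 7.77 and 6.10 to 7.04 FPKM, with overlap, while PMEL, DCT, S100B and S100A1 did not exceed 1.24. MLANA, TYR and the leukocyte marker PTPRC were not analysed here. Markers of other cells were at most 0.238 FPKM for CD14, PECAM1, CDH5 and EPCAM. The other 5 were above that in every library and did not overlap between the groups. CD68 (24.6 to 29.7 and then 40.7 to 45.0 FPKM) and KRT8 (58.0 to 67.3 and then 85.8 to 96.3 FPKM) were higher with fluvastatin. KRT18 (417 to 481 and then 345 to 387 FPKM), COL1A1 (8.24 to 11.8 and then 4.53 to 6.76 FPKM) and PDGFRB (6.23 to 10.5 and then 4.91 to 5.94 FPKM) were lower. Among all genes tested, all 3 fluvastatin libraries lay above all 3 controls in 21.9% and below them in 22.9%. The part of these markers in the results below was not tested.

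Fluvastatin was followed by a rise in 5 of the 10 genes and a fall in 0. The 5 that rose were OSGIN1, FTH1, HMOX1, TXNRD1 and NQO1, whereas NFE2L2 itself, both subunits of glutamate-cysteine ligase, SRXN1 and FTL did not pass the test. At an unadjusted p below 0.05 the limma counts were also 5 and 0. The share of all genes at that unadjusted level is not given, so unadjusted counts here and below lack a background. Among all genes tested, 14.1% rose and 13.6% fell. In 7 of the 10 genes all 3 fluvastatin libraries lay above all 3 controls, and in 0 did they lie below, against 21.9% and 22.9% of all genes. OSGIN1, counted in both the 5 and the 7, met the filter described above through its fluvastatin libraries. The median log2 fold change was 0.25 over the 10 genes and -0.01 over all genes. Since the 10 genes were chosen with earlier results known, setting them beside all genes is a description and not a test.

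The result depended on how depth was treated. When relative depth was added to the limma model as a covariate, 0 of the 10 genes passed, and 61 genes in the whole table were called. At an unadjusted p below 0.05, 2 of the 10 were higher (TXNRD1 and FTH1), with no share of all genes to set beside them. In that fit the log2 fold change of TXNRD1 was 0.69 (adjusted p = 0.152) and that of FTH1 0.67 (adjusted p = 0.174), close to their values without the covariate. Those of OSGIN1, HMOX1 and NQO1 were 0.62 (adjusted p = 0.381), 0.34 (adjusted p = 0.584) and 0.19 (adjusted p = 0.655), each below its value without it. Their 95% intervals in that fit were -0.23 to 1.48, -0.41 to 1.09 and -0.32 to 0.71. Each interval contained the value without the covariate, which was 1.21, 0.74 and 0.38 in the same order. Which genes depend on depth cannot be read from this fit, since depth did not overlap between the groups.

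**Figure D1:**
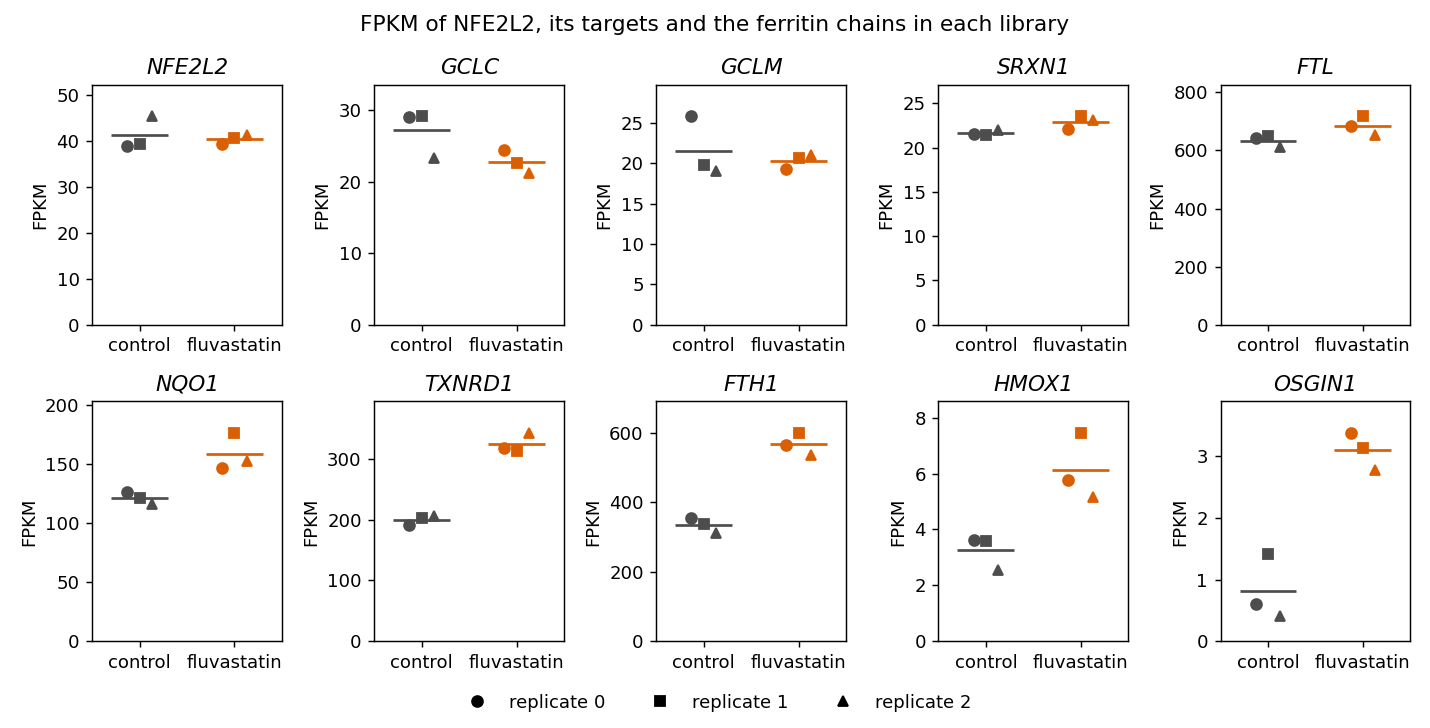
FPKM (vertical axes, each from 0) of the 10 genes in the 3 control and 3 fluvastatin libraries, with circles, squares and triangles for replicates 0, 1 and 2 and a line at each group mean. In the lower row every fluvastatin library lies above every control, as for FTH1 (537 to 599.9 against 312 to 355), and in the upper row the groups overlap or lie close together.

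The level of NFE2L2 in control replicates 0, 1 and 2 was 38.9, 39.4 and 45.5 FPKM, against 39.5, 40.8 and 41.3 FPKM in fluvastatin replicates 0, 1 and 2. The fluvastatin libraries fell inside the range of the controls. The log2 fold change was -0.02 ± 0.09 (SE; adjusted p = 0.884), with a 95% interval of -0.25 to 0.20. The gene lies on chromosome 2 at 177227595 to 177392697, minus strand (GENCODE 29, GRCh38). Its exons overlap those of AGPS on the opposite strand, which was at 37.8 to 46.8 FPKM in the controls and 32.4 to 35.1 FPKM with fluvastatin. Without a stated strand setting, reads from the shared stretch cannot be told apart. AC019080.1, annotated on the same strand with shared exons, was at 1.06 to 1.24 FPKM in the controls and 1.39 to 1.66 FPKM with fluvastatin. Reads of those exons cannot be told apart either.

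Of the 2 chains of ferritin, the heavy chain rose and the light chain did not pass the test. FTH1, whose protein holds the iron-oxidising site, was at 355, 336 and 312 FPKM in the controls and at 563, 599.9 and 537 FPKM with fluvastatin. The lowest fluvastatin library exceeded the highest control by 181.8 FPKM. FTH1 rose 1.70-fold, from 334 ± 21.8 to 567 ± 31.5 FPKM (SD, n = 3 each), with a log2 fold change of 0.76 ± 0.09 (SE; limma adjusted p = 0.00255). FTL, whose protein helps form the iron core, was at 641, 648 and 612 FPKM in the controls and at 685, 718 and 654 FPKM with fluvastatin. The 2 groups of FTL values did not overlap, but by only 5.65 FPKM, and the log2 fold change was 0.11 ± 0.08 (SE; adjusted p = 0.361, 95% interval -0.09 to 0.31).

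The ratio of FTH1 to FTL was 0.554, 0.519 and 0.510 in the controls and 0.823, 0.836 and 0.822 with fluvastatin. Its mean went from 0.528 ± 0.0235 to 0.827 ± 0.0078 (SD, n = 3 each), a log2 difference of 0.65, and all 3 fluvastatin libraries lay above all 3 controls. An exact two-sided permutation test gave p = 0.1, the smallest value that 3 libraries against 3 allow. Both chains together made up 0.129% to 0.143% of the summed FPKM in the controls and 0.168% to 0.181% with fluvastatin.

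Ferritin has many near-identical processed pseudogenes that can share its reads. The table held 17 FTH1 pseudogenes, whose summed FPKM was 2.30%, 3.42% and 2.53% of that of FTH1 in the controls and 2.49%, 2.14% and 2.25% with fluvastatin. Of the 3 high enough to test, FTH1P8 rose from 2.36 ± 0.486 to 5.62 ± 0.808 FPKM (SD, n = 3 each) and FTH1P23 from 1.44 ± 0.248 to 2.38 ± 0.275 FPKM. FTH1P3 was at 3.14 ± 0.694 and 2.24 ± 0.871 FPKM and did not pass (adjusted p = 0.244). The 4 FTL pseudogenes summed to 0.472% to 0.853% of FTL. FTH1 lies on chromosome 11 at 61959718 to 61967660, minus strand, and FTL on chromosome 19 at 48965301 to 48966878, plus strand. BEST1, which overlaps exons of FTH1 on the opposite strand, did not exceed 0.564 FPKM.

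**Figure D2:**
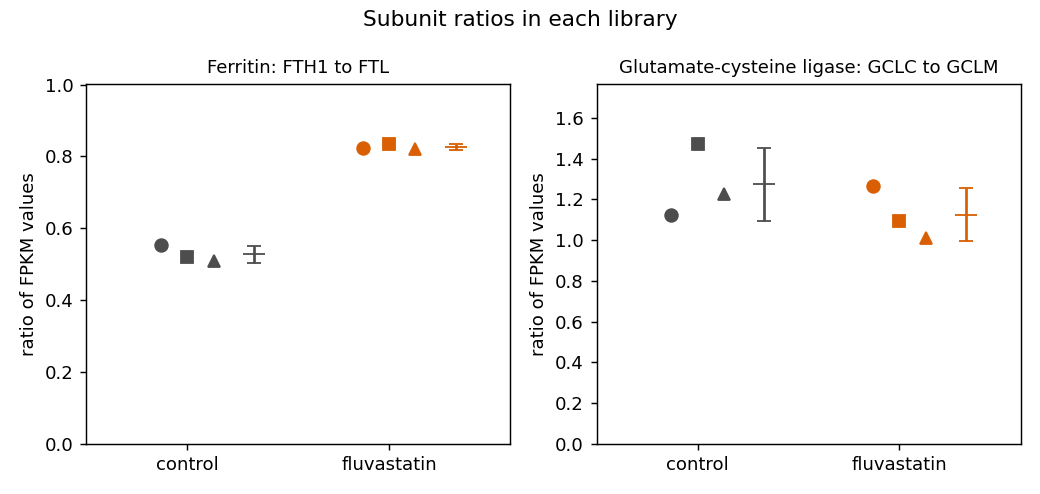
Ratios of FPKM values within each library (vertical axes, from 0), for FTH1 to FTL and for GCLC to GCLM, with circles, squares and triangles for replicates 0, 1 and 2 and bars for the mean ± SD of 3 libraries. The ferritin ratio is 0.510 to 0.554 in the controls and 0.822 to 0.836 with fluvastatin, whereas the ligase ratio overlaps between the groups.

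TXNRD1, the selenoenzyme that returns oxidised thioredoxin to its reduced form with NADPH, was at 191, 203 and 207 FPKM in the controls and at 319, 313 and 343 FPKM with fluvastatin. The groups were 105.8 FPKM apart at their nearest libraries, while the SD within each was 8.05 and 16.1 FPKM. TXNRD1 rose 1.62-fold, with a log2 fold change of 0.69 ± 0.09 (SE; adjusted p = 0.00258). It lies on chromosome 12 at 104215779 to 104350305, plus strand. EID3, a gene within its locus on the same strand with no shared exon, was at 1.54 to 2.40 FPKM and then 2.77 to 5.38 FPKM.

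SRXN1 encodes sulfiredoxin, which repairs over-oxidised peroxiredoxins. It was at 21.5, 21.5 and 22.0 FPKM in the controls and at 22.2, 23.6 and 23.1 FPKM with fluvastatin. The groups did not overlap, but their nearest libraries were 0.209 FPKM apart. The log2 fold change was 0.08 ± 0.08 (SE; adjusted p = 0.486, 95% interval -0.11 to 0.27). SRXN1 lies on chromosome 20 at 646615 to 653370, minus strand. AL121758.1 is annotated on the same strand with shared exons and has no value here, and reads of those exons cannot be told apart.

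NQO1, a quinone reductase of the cytosol and a widely used readout of NRF2 activity, was at 126, 121 and 116 FPKM in the controls and at 146, 177 and 153 FPKM with fluvastatin. All 3 fluvastatin libraries were higher, with fluvastatin replicate 1 highest. NQO1 rose 1.31-fold, from 121 ± 4.98 to 159 ± 15.9 FPKM (SD, n = 3 each; log2 fold change 0.38 ± 0.10 SE, adjusted p = 0.0339). The call was lost whichever library was left out, with adjusted p = 0.0611, 0.0841 and 0.0763 without control replicates 0, 1 and 2 and 0.0534, 0.0866 and 0.0718 without fluvastatin replicates 0, 1 and 2. NQO1 lies on chromosome 16 at 69706996 to 69726951, minus strand.

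HMOX1, which opens the haem ring and so releases iron, carbon monoxide and biliverdin, was far lower, at 3.63, 3.59 and 2.55 FPKM in the controls and 5.76, 7.46 and 5.17 FPKM with fluvastatin. The groups did not overlap, and the SD was close to 20% of the mean in both (18.7% and 19.4%). HMOX1 rose 1.88-fold by the ratio of mean FPKM, with a log2 fold change of FPKM + 1 of 0.74 ± 0.16 (SE; adjusted p = 0.0179). It lies on chromosome 22 at 35380361 to 35394214, plus strand.

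OSGIN1, an oxidative stress-induced growth inhibitor, was the lowest of the 10 genes, at 0.602, 1.42 and 0.415 FPKM in the controls and at 3.38, 3.13 and 2.77 FPKM with fluvastatin. Control replicate 1 stood above the other controls, and every fluvastatin library stood above all 3. OSGIN1 rose 3.81-fold, or 6.09-fold without control replicate 1 (log2 fold change 1.21 ± 0.20 SE, adjusted p = 0.00728). With 1 control at 1 FPKM or more, it met the filter through its fluvastatin libraries, and with no filter its adjusted p was 0.0242. OSGIN1 lies on chromosome 16 at 83948282 to 83966332, plus strand. AC009119.2, annotated on the same strand with shared exons, was at 0.847 to 3.24 FPKM in the controls and 1.10 to 3.58 FPKM with fluvastatin, and reads of the shared exons cannot be told apart.

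The subunits of glutamate-cysteine ligase, the enzyme that sets the pace of glutathione synthesis, did not pass the test in either direction. GCLC, the catalytic subunit, was at 29.1, 29.2 and 23.3 FPKM in the controls and at 24.4, 22.6 and 21.2 FPKM with fluvastatin, with control replicate 2 inside the fluvastatin range. The log2 fold change of GCLC was -0.24 ± 0.12 (SE; adjusted p = 0.173), and the 95% interval of -0.52 to 0.04 reaches 1.03 times the control level on the scale of FPKM + 1. GCLM, the modifier subunit, was at 25.9, 19.8 and 19.0 FPKM and then at 19.3, 20.7 and 21.0 FPKM, so that only control replicate 0 stood apart. The log2 fold change of GCLM was -0.07 ± 0.13 (SE; adjusted p = 0.726, 95% interval -0.38 to 0.24).

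The ratio of GCLC to GCLM was 1.12, 1.47 and 1.23 in the controls and 1.27, 1.09 and 1.01 with fluvastatin. The groups overlapped, and the log2 ratio differed by -0.18 (exact two-sided permutation test, p = 0.4). GCLC lies on chromosome 6 at 53497341 to 53616970 and GCLM on chromosome 1 at 93885205 to 93909456, both on the minus strand.

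**Figure D3:**
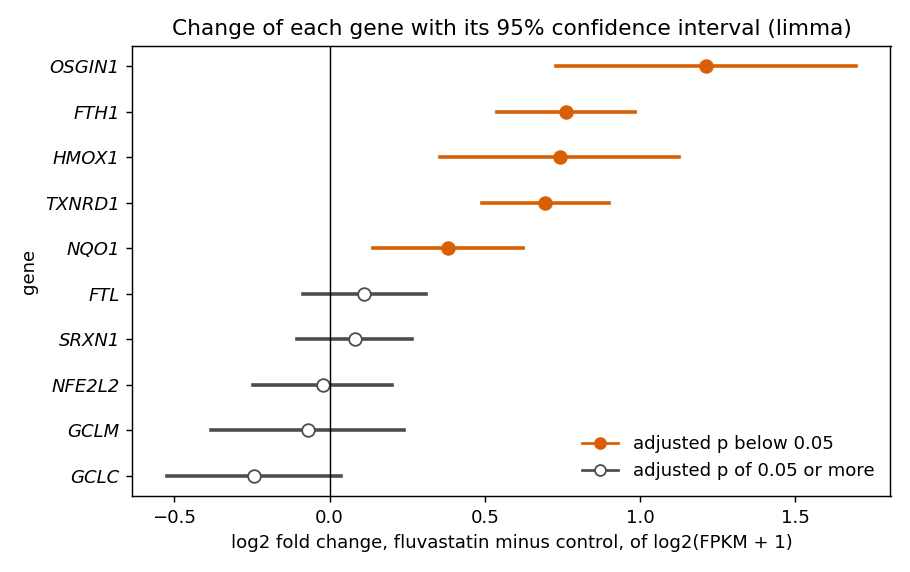
Log2 fold change of each gene, fluvastatin minus control, on the log2(FPKM + 1) scale (horizontal axis), with the 95% confidence interval from limma. Filled orange points passed at an adjusted p below 0.05, from NQO1 at 0.38 to OSGIN1 at 1.21, and the intervals of the 5 open points include 0.

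By level, FTL came first in both groups, followed by FTH1, TXNRD1, NQO1 and NFE2L2 in that order, with no overlap between neighbours. GCLC, SRXN1 and GCLM followed, with means of 27.2, 21.6 and 21.6 FPKM in the controls and 22.7, 22.9 and 20.3 FPKM with fluvastatin. In the controls GCLM overlapped both of the others, and GCLC lay above SRXN1 in every library. With fluvastatin GCLC and SRXN1 overlapped, and GCLM lay below both. HMOX1 and OSGIN1 were lowest in both. Among the 14344 tested genes, FTH1 moved from rank 263 to rank 156 and TXNRD1 from rank 466 to rank 268, counted from the most abundant, while FTL went from rank 133 to rank 125.

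Genes most like HMOX1, FTH1 and NFE2L2 were found by the root mean square difference of centred log2(FPKM + 1) values over the 6 libraries, among the 10168 tested genes that averaged 5 FPKM or more. For HMOX1 they were TRIOBP (0.0678), ENO2 (0.079) and PARP3 (0.0829). HMOX1 itself averaged below 5 FPKM, so the added 1 lessens its change more than theirs. Its group means were 3.26 and 6.13 FPKM, against 36.3 and 59.3 FPKM for TRIOBP. RRBP1 (0.0241), PRKCD (0.0249) and DPYSL2 (0.0322) came nearest to FTH1. Nearest to NFE2L2 were MPV17 (0.0238), C14orf119 (0.0252) and FZD6 (0.0284). The measure is a description over 6 libraries that also share depth.

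The pathway around these genes was described with 7 lists of 101 genes, of which 90 were tested, 19 rose, 8 fell and 63 did not pass. That was 21.1% and 8.9% of the 90, against 14.1% that rose and 13.6% that fell among all genes tested. The lists were also chosen with earlier results known, so their counts are a description. The median log2 fold change over the 90 was 0.04. NRF2 partners and regulators numbered 15, of which 5 (33.3%) rose and 1 (6.7%) fell, with a median log2 fold change of 0.26. The small MAF genes, whose proteins pair with NRF2 or with BACH1, included MAFF at 14.9, 16.9 and 13.9 FPKM in the controls and 27.7, 33.7 and 28.5 FPKM with fluvastatin, a rise of 1.97-fold (adjusted p = 0.00278). MAFK rose 1.70-fold (adjusted p = 0.00733), and MAFG was at 17.5 ± 0.884 and 21.4 ± 1.29 FPKM (SD, n = 3 each; adjusted p = 0.0607). NFE2L3, a factor related to NRF2, fell from 34.9 ± 2.67 to 22.1 ± 2.54 FPKM (adjusted p = 0.00875). KEAP1 was at 36.4 ± 3.32 and 33.1 ± 5.68 FPKM, groups that overlapped (adjusted p = 0.496).

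BACH1, the competitor of NRF2, rose 1.53-fold (adjusted p = 0.0409), SQSTM1, an autophagy receptor that binds KEAP1, rose 1.46-fold (adjusted p = 0.0374) and the kinase GSK3B rose 1.35-fold (adjusted p = 0.0169). Each of these 3 calls was lost on leaving out some single libraries. For BACH1 these were control replicates 1 (0.101) and 2 (0.0857) and fluvastatin replicates 0 (0.117) and 2 (0.101). For SQSTM1 they were control replicates 1 (0.0807) and 2 (0.0787) and fluvastatin replicates 0 (0.1) and 1 (0.103). For GSK3B they were control replicate 1 (0.0562) and fluvastatin replicates 0 (0.0608) and 2 (0.0565), all adjusted p-values from limma.

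Detoxification and transport genes linked to NRF2 numbered 18, of which 7 (38.9%) rose and 0 fell, against 14.1% and 13.6% of all genes. Their median log2 fold change was 0.19. The unadjusted limma count was also 7 and 0. Both counts of 7 include AKR1C1, AKR1C2 and AKR1C3, whose limits of filter and shared reads are given below. The aldo-keto reductases of the AKR1C family, which reduce carbonyls and steroids, had the largest folds of the lists. AKR1C2 was at 2.82, 2.50 and 1.58 FPKM in the controls and 11.8, 12.9 and 11.5 FPKM with fluvastatin, a rise of 5.24-fold (adjusted p = 6.04e-04). AKR1C3 rose 3.05-fold, from 7.82 ± 1.36 to 23.9 ± 2.23 FPKM (SD, n = 3 each; adjusted p = 0.00108). AKR1C1 was at 0.380 ± 0.195 and 3.08 ± 0.451 FPKM and met the filter through its fluvastatin libraries alone, so it had to differ. These genes are near-identical copies whose reads may be split, so the folds of single members are uncertain. BLVRB, a biliverdin reductase, rose 1.59-fold (adjusted p = 0.00977).

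Among 16 glutathione genes 2 (12.5%) rose and 1 (6.2%) fell, against 14.1% and 13.6% of all genes, with a median of 0.03. MGST3, a membrane-bound glutathione transferase and peroxidase, was at 28.4, 27.6 and 27.9 FPKM in the controls and 62.8, 65.2 and 63.7 FPKM with fluvastatin, a rise of 2.29-fold (adjusted p = 3.55e-04). GLRX, glutaredoxin, rose 1.94-fold (adjusted p = 0.00349). GGCT, which breaks down gamma-glutamyl dipeptides, fell from 54.3 ± 1.28 to 31.8 ± 1.54 FPKM (SD, n = 3 each; adjusted p = 0.00172). SLC7A11, the cystine importer that feeds glutathione synthesis, was at 15.8, 23.6 and 34.7 FPKM in the controls and at 46.0, 37.4 and 44.6 FPKM with fluvastatin. The groups did not overlap, the controls spread widely, and the limma test was not passed (log2 fold change 0.83 ± 0.26 SE, adjusted p = 0.0601).

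Of 13 thioredoxin and peroxiredoxin genes 2 (15.4%) rose and 3 (23.1%) fell, against 14.1% and 13.6% of all genes, with a median of -0.09. The peroxiredoxin PRDX5 rose 1.79-fold, from 110 ± 7.43 to 197 ± 14.4 FPKM (SD, n = 3 each; adjusted p = 0.00224). TXN, the thioredoxin that TXNRD1 reduces, was at 422, 389 and 434 FPKM in the controls and 496, 573 and 575 FPKM with fluvastatin, a rise of 1.32-fold (adjusted p = 0.0277). Leaving out control replicate 0 (adjusted p = 0.0608), control replicate 1 (0.0844), fluvastatin replicate 1 (0.0835) or fluvastatin replicate 2 (0.0859) ended the TXN call. The mitochondrial reductase TXNRD2 fell from 31.7 ± 2.52 to 21.7 ± 3.21 FPKM (adjusted p = 0.0262), a direction opposite to that of TXNRD1. It did not pass on leaving out control replicate 0 (0.0633), control replicate 1 (0.0773), fluvastatin replicate 0 (0.0605) or fluvastatin replicate 2 (0.0562). PRDX3, also mitochondrial, fell from 154 ± 17.7 to 112 ± 7.05 FPKM (adjusted p = 0.0266), and lost its call without fluvastatin replicate 0 (0.0853), 1 (0.0623) or 2 (0.0583). The third that fell was TXNRD3, from 6.72 ± 0.349 to 5.28 ± 0.351 FPKM (SD, n = 3 each; adjusted p = 0.0460), and its call was lost whichever library was left out (adjusted p between 0.0590 and 0.132). PRDX1, an abundant cytosolic peroxiredoxin, was at 800.2 ± 40.3 and 897 ± 82.8 FPKM, groups that overlapped (adjusted p = 0.281).

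Of 9 NADPH-producing enzymes tested 2 (22.2%) fell, against 13.6% of all genes, and the median log2 fold change was -0.07. PGD, an enzyme of the pentose phosphate pathway, fell from 83.3 ± 8.10 to 61.7 ± 5.77 FPKM (adjusted p = 0.0347), and did not pass on leaving out control replicate 0 (0.0923), control replicate 1 (0.0970), fluvastatin replicate 0 (0.107) or fluvastatin replicate 2 (0.0960). MTHFD1, of folate metabolism, fell from 89.8 ± 3.54 to 59.9 ± 3.28 FPKM (adjusted p = 0.00516).

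Of 16 iron and haem genes 2 (12.5%) rose and 1 (6.2%) fell, against 14.1% and 13.6% of all genes. The other 13 did not pass, and the median was 0.00. ACO1, which encodes the cytosolic aconitase that doubles as iron regulatory protein, was at 36.7, 34.1 and 35.2 FPKM in the controls and at 20.5, 22.2 and 21.5 FPKM with fluvastatin. The groups did not overlap, and ACO1 fell by 0.70 on the log2 scale (SE 0.08; adjusted p = 0.00227). Its counterpart IREB2 was at 39.6 ± 3.49 and 33.1 ± 2.33 FPKM (SD, n = 3 each; adjusted p = 0.121), with overlap. TFRC, the transferrin receptor, was at 109 ± 14.5 and 113 ± 5.22 FPKM (adjusted p = 0.747), and NCOA4, which delivers ferritin to autophagosomes, was at 39.3 ± 1.94 and 39.3 ± 1.90 FPKM (adjusted p = 0.998). The groups overlapped for both genes.

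The calls of CYBRD1, a ferric reductase, and ALAS1, the first enzyme of haem synthesis, depended on which libraries were used. CYBRD1 rose 1.42-fold (adjusted p = 0.0310), lost without control replicates 1 (0.0775) or 2 (0.0731) or fluvastatin replicates 0 (0.0566), 1 (0.0511) or 2 (0.0679). ALAS1 rose 1.26-fold (adjusted p = 0.0438), lost without control replicates 0 (0.0706), 1 (0.117) or 2 (0.0880) or fluvastatin replicates 0 (0.0528), 1 (0.114) or 2 (0.123). Of 3 superoxide and peroxide enzymes tested, 0 rose or fell with limma and 0 did so at an unadjusted p below 0.05. SOD1 was at 144 ± 8.19 and 142 ± 12.7 FPKM (SD, n = 3 each), SOD2 at 21.8 ± 2.65 and 21.3 ± 2.02 FPKM and catalase, CAT, at 22.4 ± 2.81 and 21.5 ± 1.84 FPKM.

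**Figure D4:**
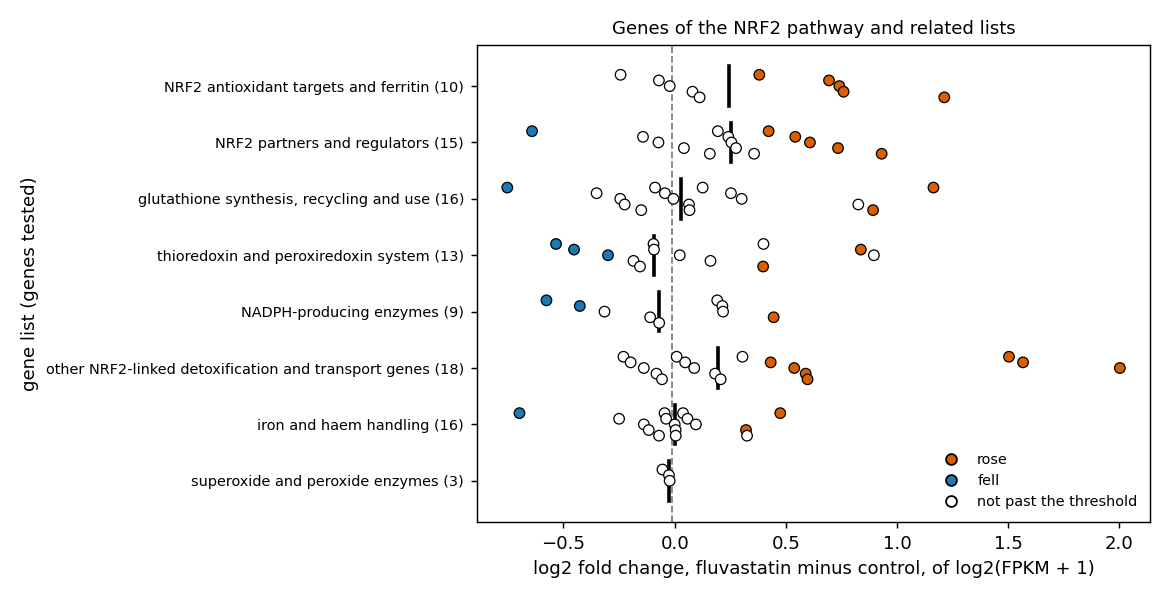
Log2 fold change, fluvastatin minus control, on the log2(FPKM + 1) scale (horizontal axis) of every tested gene of the NRF2 and ferritin group and of 7 related lists (rows, with the number tested), with a black bar at each median and a dashed line at the median of all genes, -0.01. Orange, blue and white points mark genes that rose, fell or did not pass, and list medians run from -0.09 for the thioredoxin system to 0.26 for NRF2 partners and regulators.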

How the data were processed

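RNA-seq values of 6 A375 libraries in 2 groups of 3 were used. The submitters' processing notes list STAR, Cufflinks, Cuffdiff and the build hg38. The table deposited by the authors names no unit, and its values were taken as FPKM, since they are not whole and Cufflinks gives that unit. Versions, annotation, strand setting and rescaling are not given in the sources used here, and near-identical copies may share reads. FPKM carries no counts, so relative depth was estimated from ratios of low values to those of control replicate 0. The most common ratio was taken to reflect 1 fragment in each library. Between 5.8% and 10.1% of the ratios lay at that value, so the depths are estimates.

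Genes were fitted with limma 3.58.1 in R 4.3.3 on log2(FPKM + 1) (lmFit, eBayes, two-sided, Benjamini-Hochberg over all tested genes). The fit and the depth estimate were also run on simulated data. For depth these held whole fragments and 1 length per gene, a simpler setting than the real values. Ratios were compared with an exact permutation test. Coordinates came from GENCODE 29, to which 29542 of 29790 identifiers matched. Members and lists were chosen with earlier results of these data known. Named genes were the 10 members, up to 4 genes per list with the smallest adjusted p, 11 genes fixed by name and the 3 nearest genes of HMOX1, FTH1 and NFE2L2. MAFG, TXNRD3 and TXNIP fell outside this rule and were named after their values were seen. One of the genes fixed by name is not reported here. The 14 alternatives changed pseudocount, filter, scaling, variance model, block, depth covariate or the libraries used.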

Additional observations from a re-analysis of the deposited data

How the results depend on the processing

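The count of members that rose was 5 or 4 under 12 of 14 alternatives, 3 of 8 tested genes at a mean of at least 5 FPKM, where HMOX1 and OSGIN1 were not tested, and 0 with estimated depth as a covariate, where all genes called fell from 3971 to 61 and related-list calls from 27 to 0 (limma; 15 of 90 at an unadjusted p below 0.05). FTH1 and TXNRD1 passed under 13 of 14 alternatives and HMOX1 and OSGIN1 under 12 of 13, all but the depth covariate. NQO1 passed under 6 of 14, and 0 members fell under any. Leaving out single libraries gave 2277 to 3483 calls over all genes, 15 to 23 over the related lists and 4 members that rose each time, NQO1 being the one lost. Of the 27 related-list calls, 14 were lost only with the depth covariate where they could be tested, and 13 under other alternatives too. The ratios were recomputed only with FPKM + 1 and without each library in turn, where the log2 difference was 0.62 to 0.69 for FTH1 to FTL and -0.27 to -0.07 for GCLC to GCLM. With replicate number as a block, 4 members rose (NQO1 at adjusted p = 0.0659), 3154 genes were called in all and 20 in the related lists. Deviations of same-numbered libraries correlated at -0.002, 0.085 and 0.084 over genes, not every library correlated best with its own number, and the numbers were not taken as pairs. The number of fragments behind each value is unknown, which limits HMOX1 and OSGIN1 most.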

Other observations

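SLC40A1, the iron exporter ferroportin, was below the filter and was not tested. Its FPKM was 1.79 in control replicate 2, against 0.0219 and 0.0356 in control replicates 0 and 1 and 0.106, 0.417 and 0.450 in fluvastatin replicates 0, 1 and 2. TXNIP, whose protein binds and inhibits thioredoxin, was at 16.5, 20.5 and 17.1 FPKM in the controls and 24.1, 30.02 and 19.0 FPKM with fluvastatin. The TXNIP groups overlapped, since fluvastatin replicate 2 lay below control replicate 1, and TXNIP did not pass the limma test. TXNIP was singled out after its values were seen.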
